A study of Mus musculus with 12 samples.

Results

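miR-712 is a mouse microRNA with a 5p and a 3p arm, mmu-miR-712-5p and mmu-miR-712-3p in the count files. Both arms, 2 of the 1978 mature miRNAs counted, were chosen by name, and they were picked because their counts fell when trophoblast stem cells were paused. Values from that comparison are therefore given as a description, with no test, and so are comparisons between the cell types, which use the same trophoblast libraries. The series holds small RNA counts of embryonic stem cells (ESC, line E14) and of trophoblast stem cells (TSC), which give rise to the placenta, all from mouse. Control cells, labelled wild type, stand beside cells paused through inhibition of mTOR, the kinase that couples nutrient supply to growth and ribosome production. The inhibitor, its dose, the length of treatment and the name of the TSC line are not stated in the labels used here. The comparison addresses which miRNAs differ in cells brought into a dormant state resembling embryonic diapause.

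Most miRNAs are cut from a hairpin in a Pol II transcript by the nuclease Drosha and then by Dicer. miR-712 is reported to take another route: its hairpin lies in a spacer of the ribosomal RNA precursor, which is transcribed by Pol I from many gene copies and is then cleaved and trimmed into the mature ribosomal RNAs. Inhibition of mTOR is known to reduce transcription of that precursor. miR-712-5p is best known from arterial endothelium under disturbed flow, where it was reported to repress Timp3, an inhibitor of matrix metalloproteinases. Its origin from the precursor was not tested in these count files, and the sequence of neither arm is printed here.

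The 12 labelled samples hold 8 distinct libraries, 2 in each of the 4 groups, because replicate 3 repeated replicate 2 at every miRNA in all groups. Each such pair was counted as 1 sample. Total counts ran from 13607 to 115492. The highest total was that of replicate 1 of control TSC, whose other library had 18725. Levels are given as CPM, which corrects each count for the size of its library, with TMM factors (trimmed mean of M-values). A count of 0 allows up to 3 counts, worth 37.4 to 192 CPM, and these limits and all counting intervals below cover counting error only. No label says that the libraries of a group are separate cultures, and p-values then measure a spread that may be technical. Both arms were among the 206 miRNAs that passed the filter on low counts, which asks for about 369 CPM before scaling in 2 libraries. Both control TSC libraries reached it for either arm, and both paused ESC libraries for the 5p arm alone. The miR-302 and miR-367 markers of ESC summed to 1914 to 3579 CPM in control ESC, 49.9 to 61.9 in paused ESC and at most 76.4 in TSC. The miR-322 and miR-503 markers of TSC summed to 117613 to 142432 CPM in control TSC, 49310 to 63626 CPM in paused TSC and at most 959 CPM in ESC. Fewer cells of a type and less RNA per cell cannot be told apart in such bulk samples.

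miR-712-5p stood highest in control TSC. The deposited counts were 109 and 52 in control TSC, 8 and 8 in paused TSC, 6 and 3 in control ESC, and 32 and 33 in paused ESC. On the TMM scale its level was 1389 and 3129.9 CPM in control TSC, a 2.25-fold spread between libraries, and 331 and 242 CPM in paused TSC. By the total count alone the control TSC libraries stood lower and wider apart, at 944 and 2777 CPM, a 2.94-fold spread. The control and paused TSC groups did not overlap, and 35.9% of tested miRNAs likewise lay wholly lower in paused TSC. The lower control TSC library stood above every library of the other groups. How many tested miRNAs shared that order was not counted. In ESC the level was 273 and 192 CPM in control cells and 399 and 510.5 CPM in paused cells. The order of the group means was control TSC (2259 ± 1231 CPM), paused ESC (455 ± 78.8), paused TSC (286 ± 62.7) and control ESC (233 ± 57.8; SD, n = 2). The last 2 groups overlapped. By mean level miR-712-5p ranked 49 among the 498 miRNAs detected in control TSC, 136 of 398 in paused TSC, 166 of 399 in control ESC and 112 of 480 in paused ESC.

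miR-712-3p, the product of the other strand of the hairpin, had the same high group. Its counts were 117 and 34 in control TSC, 7 and 7 in paused TSC, 2 and 3 in control ESC, and 9 and 28 in paused ESC. On the TMM scale these were 1490.4 and 2046 CPM in control TSC and 289 and 212 CPM in paused TSC, with no overlap. The arm was again among the 35.9% of tested miRNAs lying wholly lower in paused TSC. In control ESC the level was 91.1 and 192 CPM. The paused ESC libraries stood far apart at 112 and 433 CPM, a 3.86-fold spread, and the lower of them lay inside the range of control ESC. The group means were 1768 ± 393 CPM in control TSC, 273 ± 227 in paused ESC, 251 ± 54.9 in paused TSC and 141 ± 71.1 in control ESC (SD, n = 2). The ranges of paused ESC and paused TSC overlapped, as did those of paused and control ESC.

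**Figure D1:**
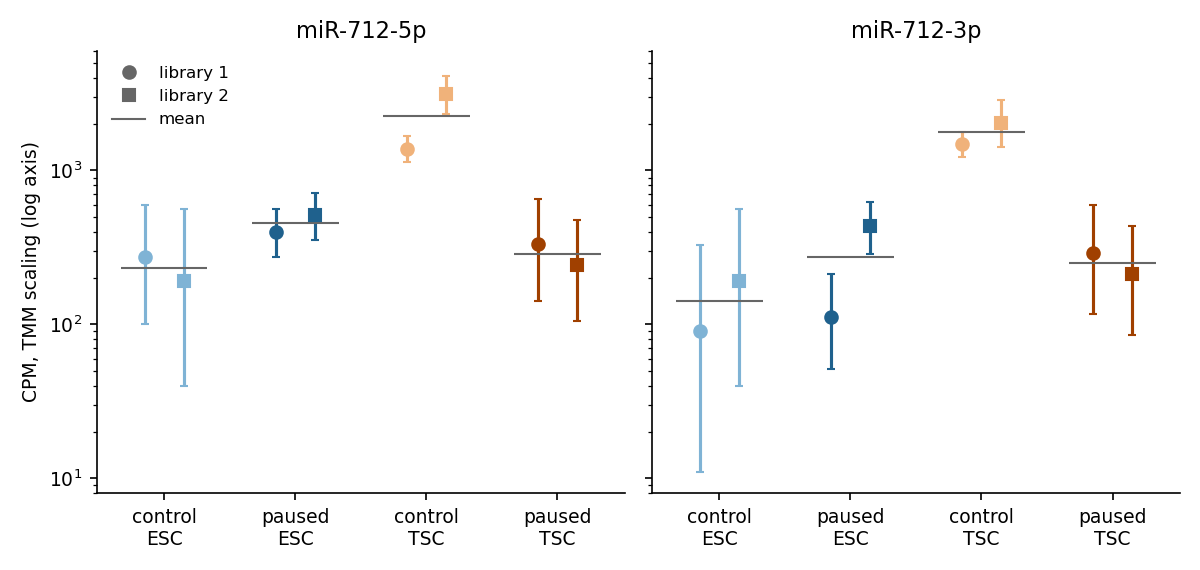
Level of each arm of miR-712 in every library, in CPM with TMM scaling on a log axis. Points are libraries (circle and square for the 2 libraries of a group), bars are exact 95% Poisson intervals of the library's own count, and lines are group means. For both arms the control TSC libraries (1389 to 3129.9 CPM for the 5p arm, 1490.4 to 2046 CPM for the 3p arm) lie above all others.

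The change on pausing of TSC, for which the arms were picked, was −2.89 ± 0.46 on the log2 scale for the 5p arm and −2.78 ± 0.46 for the 3p arm (SE, edgeR model). These are 7.39-fold and 6.86-fold lower levels. From the pooled counts over the scaled library sizes, 161 against 16 and 151 against 14, control TSC had 6.06 times (5p; 95% counting interval 3.62 to 10.9) and 6.49 times (3p; 3.75 to 12.2) the level of paused TSC. Among the 206 tested miRNAs, 17% were called lower in paused TSC and the libraries of 35.9% lay wholly lower. That share depends on the scaling: 35 were called lower and 4 higher with TMM, against 12 lower and 14 higher with the total count alone. Ordered by fold change, miR-712-5p was number 18 from the lowest and miR-712-3p number 19. Of the 17 miRNAs below them, 16 had 3 or fewer counts in the pooled paused TSC libraries. Next below the arms was miR-302d-3p, with 2 counts in control and 0 in paused TSC, too few for a fold. Next above was miR-5126 (−2.50 ± 0.32, from 6651 to 691 counts). The size depended on control TSC replicate 2: without it the change was −1.82 for the 5p arm and −2.12 for the 3p arm. The median log2 fold change of all tested miRNAs was −0.386 in this comparison, and with the total count as the scale the change was −2.47 for the 5p arm and −2.32 for the 3p arm.

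Pausing of ESC shares no library with the comparison the arms were picked in, and was tested. The test was not fully separate from TSC, since the filter, scaling factors and spread came from all 4 groups. miR-712-3p passed the filter through control TSC, and failed it with only the ESC groups compared. Neither arm was called. The log2 fold change was 0.92 ± 0.57 for miR-712-5p (95% interval −0.20 to 2.05; adjusted p = 0.247) and 0.96 ± 0.71 for miR-712-3p (−0.42 to 2.37; adjusted p = 0.322; SE, edgeR's quasi-likelihood test with Benjamini-Hochberg adjustment over 206 miRNAs). At the threshold of 0.05, 0 of 2 arms were called, beside 27.7% of all tested miRNAs (8.25% higher). The count was also 0 at an unadjusted p under 0.05 and 0 by DESeq2. Both libraries of paused ESC were above both of control ESC for the 5p arm, as were those of 34.5% of tested miRNAs, while the groups overlapped for the 3p arm. Control ESC held only 9 counts of the 5p arm and 5 of the 3p arm, and the ratio of paused to control from pooled counts was 1.87 (95% counting interval 0.929 to 4.28) and 1.92 (0.753 to 6.26). For miR-712-3p the value rested on paused ESC replicate 2, without which it was −0.027 (edgeR adjusted p = 1).

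Between the cell types, the arms stood apart in the control state, and their ranges lay nearer in the paused state. Control ESC had 8.70-fold less miR-712-5p than control TSC (log2 fold change −3.12 ± 0.52 SE) and 12.5-fold less miR-712-3p (−3.64 ± 0.58). Without control TSC replicate 2 these values were −2.10 and −3.03, and without control ESC replicate 1 that of the 3p arm was −2.98. The libraries did not overlap, as for 45.1% of tested miRNAs, which lay wholly lower in control ESC, and 39.3%, which lay wholly higher. In the paused state the difference of ESC from TSC was 0.68 ± 0.50 for miR-712-5p and 0.095 ± 0.54 for the 3p arm (log2, SE), again as a description. For the 5p arm the paused ESC libraries were above those of paused TSC, as for 45.1% of tested miRNAs, while for the 3p arm they overlapped.

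Since every such value depends on how libraries are scaled, the arms were also set against other miRNAs of the same library, a ratio that no scaling changes. The first reference was the miR-290-295 cluster, which is highly expressed in early mouse embryos. The counts of both arms per 1000 counts of that cluster were 3.54 and 9.45 in control TSC, 1.07 and 0.846 in paused TSC, 0.643 and 0.71 in control ESC, and 0.853 and 1.52 in paused ESC. Control TSC was apart from all other libraries, with a mean 6.77 times that of paused TSC. The cluster held 63778 of 115492 and 9101 of 18725 counts in the control TSC libraries. This ratio therefore comes near to scaling by the total count and is not a separate check. As a share of all counts, both arms together made up 0.196% and 0.459% of the control TSC libraries (exact 95% binomial intervals 0.171 to 0.223 and 0.368 to 0.567). In the other 6 libraries the share was 0.0415% to 0.0988%.

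The miRNAs most like the arms across the 8 libraries were mostly database entries of doubtful origin. Likeness was the Pearson correlation of log2 CPM over the 8 libraries, which share depth and scaling with the arms and fall into 4 groups, so r is a description. For miR-712-5p the 5 highest were miR-6240 (r = 0.951), miR-712-3p (0.915), miR-5126 (0.908), miR-2137 (0.891) and miR-690 (0.810). For miR-712-3p they were miR-6240 (0.955), miR-2137 (0.955), miR-5126 (0.919), miR-712-5p (0.915) and miR-203-3p (0.896). The first 3 outside the arms were thus the same for both. miR-6240, miR-5126, miR-2137 and miR-690 are entries whose reads may stem from fragments of other RNAs, and miR-203-3p is a regulator of epithelial differentiation. Their mature sequences, from RefSeq (GRCm38.p6), are shown because these are the RNAs whose counts followed this pattern, with the seed (bases 2 to 8) in capitals. The 5 seeds all differ.
miR-6240: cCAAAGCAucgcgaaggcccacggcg
miR-5126: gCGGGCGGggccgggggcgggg
miR-2137: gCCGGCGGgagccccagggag
miR-690: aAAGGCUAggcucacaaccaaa
miR-203-3p: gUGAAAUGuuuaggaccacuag
G and C made up 69.2% of miR-6240, 100% of miR-5126 and 85.7% of miR-2137, against 45.5% of miR-690 and 40.9% of miR-203-3p. In GRCm38, miR-6240 lies at chr5:114851973-114851998 (+) and miR-203-3p at chr12:112130927-112130948 (+), both outside other genes of GENCODE M21. miR-5126, at chr1:84695890-84695911 (+), lies opposite an exon of Dner. miR-2137, at chrX:72992113-72992133 (+), lies in an intron of Zfp185, and miR-690, at chr16:28599940-28599961 (−), in an intron of Fgf12.

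The 3 nearest entries shared with miR-712 a level in control TSC far above the rest. miR-6240 stood at 6178 and 6200 CPM in control TSC, 1447 and 998 in paused TSC, 957 and 703 in control ESC, and 935 and 1500.5 in paused ESC. miR-5126 stood at 71095 and 64404 CPM in control TSC, falling to 11656 and 12368 CPM in paused TSC, and miR-2137 at 56993 and 77706 against 14219 and 15906 CPM. In each case the control TSC libraries were above all others, an order whose share among tested miRNAs was not counted. Set against the summed counts of these 3 entries, miR-712 varied far less than against the miR-290-295 cluster. Both arms had 21.4 and 34.9 counts per 1000 counts of the 3 entries in control TSC, 22.7 and 15.5 in paused TSC, 14.0 and 17.7 in control ESC, and 30.1 and 30.7 in paused ESC. The control and paused TSC libraries overlapped on this ratio, and the highest of the 8 libraries was 2.5 times the lowest, against 14.7 times with the miR-290-295 cluster as reference. In ESC the paused libraries were above the control libraries, with a mean 1.92 times as high. The 3 entries were named by their likeness to the arms over these same 8 libraries. A narrow range of this ratio is built into that choice and is not a separate result. A shared source was not tested.

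**Figure D2:**
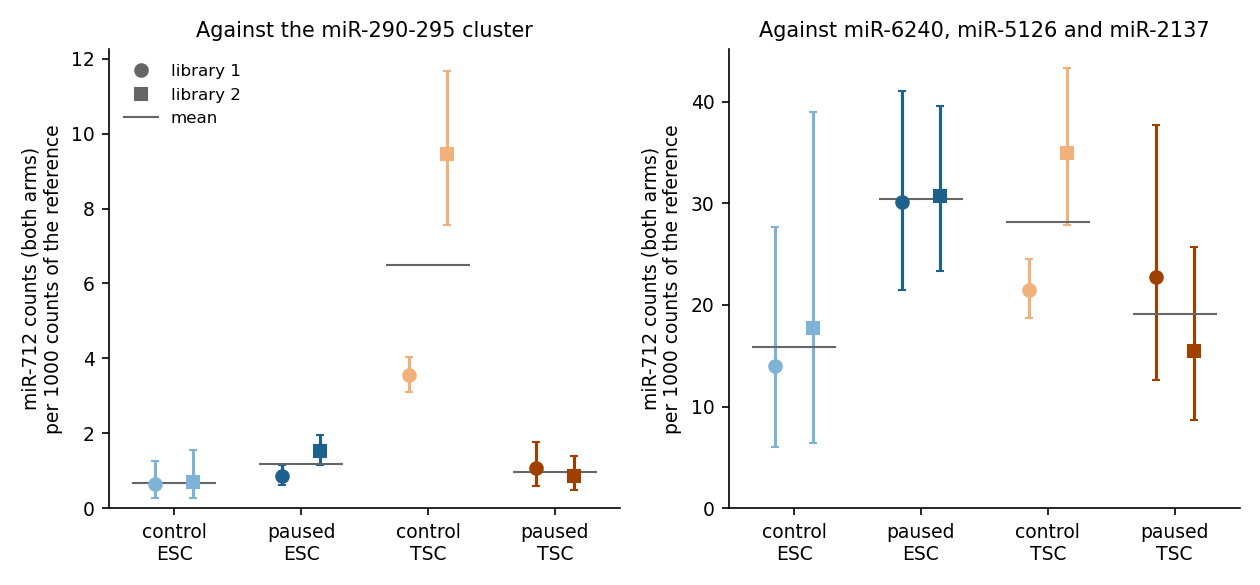
Counts of both arms of miR-712 per 1000 counts of the miR-290-295 cluster (left) and per 1000 counts of miR-6240, miR-5126 and miR-2137 together (right), by library. Bars are exact 95% intervals from the counts and lines are group means. Control TSC stands apart on the left (3.54 and 9.45), while on the right its libraries (21.4 and 34.9) overlap those of paused TSC and paused ESC.

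The lists below were chosen with earlier results of these data known, so their counts are descriptions. Of the entries thought to lie in the ribosomal RNA precursor, miR-714 was the other one counted. It had 46 and 9 counts in control TSC, 2 and 8 in paused TSC, 5 and 2 in control ESC, and 13 and 4 in paused ESC. Its level was 564 ± 31.3 CPM in control and 162 ± 113 CPM in paused TSC (SD, n = 2). The fall was called (log2 fold change −1.71 ± 0.63, edgeR adjusted p = 0.0358), but in only 2 of 18 alternatives that gave an adjusted p, which ran from 0.00583 to 0.693. In ESC its change was −0.66 ± 0.84 (edgeR adjusted p = 0.562). Of the 16 listed entries of doubtful origin with a row in the files, 12 had counts and 6 were tested, among them the 3 named above. In paused TSC all 6 were called lower (median −2.10, against −0.386 for all tested miRNAs and 17% called lower with TMM scaling). Besides the 3, these were miR-1983 (−2.03), miR-690 (−1.47) and miR-5099 (−1.30). miR-2137, miR-5126, miR-6240 and miR-1983 were called in all 19 alternatives, but miR-5099 in 8 and miR-690 in 6 of the 19. In paused ESC 1 of the 6 was called higher and 2 were called lower, with a median of −0.0157 beside −0.0285 for all tested and 19.4% called lower. The 1 higher was miR-690 (2.00; called in 16 of 19 alternatives), and the 2 lower were miR-5099 (−2.23; 19 of 19) and miR-1983 (−1.56; 18 of 19). miR-6240 (0.52), miR-2137 (0.051) and miR-5126 (−0.082) were not called in ESC, and the sign of the latter pair changed with the setting.

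**Figure D3:**
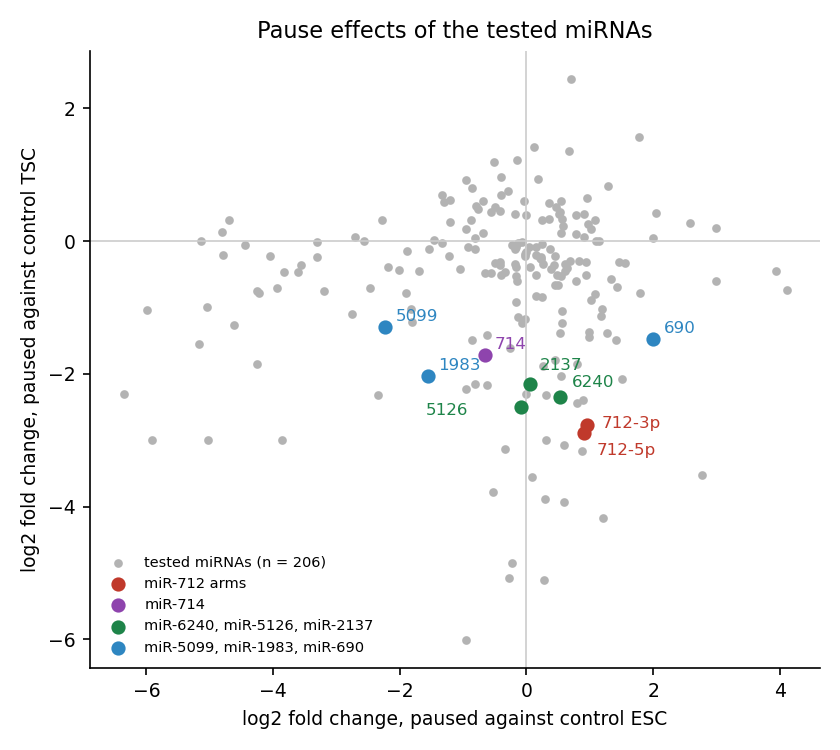
Log2 fold change of the 206 tested miRNAs on pausing of ESC (x axis) and of TSC (y axis), with the arms of miR-712, miR-714 and 6 entries of doubtful origin marked. The marked entries all lie below 0 on the y axis, while on the x axis they spread from −2.23 (miR-5099) to 2.00 (miR-690), with both arms of miR-712 near 0.9.

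Other Drosha-independent miRNAs, such as mirtrons, which are cut from short introns by the splicing machinery, gave little to compare. Of 15 listed, 11 had counts and only miR-484, whose primary transcript is itself the precursor hairpin, was tested. Its group means ran from 939.5 to 1571 CPM, with a log2 fold change of −0.081 in TSC, whose sign changed with the setting, and 0.16 in ESC. It was not called in either. Of the 7 other miRNAs reported to target Timp3, 3 were tested. miR-21a-5p rose in paused TSC, from 4800 ± 2021 to 9602 ± 3057 CPM (log2 fold change 0.97, edgeR adjusted p = 0.0294; called in 16 of 19 alternatives). That value was 1.77 without control TSC replicate 1 and 1.74 without paused TSC replicate 1, and the call was lost without paused TSC replicate 2 (0.90, edgeR adjusted p = 0.211). miR-17-5p (0.12 in TSC, −0.68 in ESC) and miR-205-5p (−0.20 and −0.028) were not called, though miR-17-5p was in 6 of 19 alternatives in ESC. The background in TSC was 1.94% called higher.

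Markers of other cell types were counted beside the arms. The endothelial arms miR-126a-3p and miR-126a-5p summed to 2943 to 3070 CPM in control TSC, 1845 to 2273 in paused TSC and 831 to 975 in ESC, and neither was called by edgeR in either pause comparison. Of 5 markers of fibroblasts or feeder cells, 4 were detected, with a sum of 361 to 943 CPM in control TSC and 151 to 413 in paused TSC, and miR-199a-5p was at 0. In ESC that sum was 767 to 1072 CPM. Of these, miR-143-3p alone was tested and was not called in either comparison. Of 5 blood markers, miR-451a and miR-223-3p were at 0. The blood sum was 7839 to 9650 CPM in control ESC, 4610 to 5200 CPM in paused ESC and at most 178 CPM in TSC. In paused ESC miR-142a-5p (−4.25) and miR-142a-3p (−3.86) were called lower and miR-150-5p (1.20) higher, and in TSC none of the 3 was called by edgeR. The liver marker miR-122-5p and the neural markers miR-124-3p and miR-9-5p were at 0 in all 8 libraries, and of the 2 muscle markers only miR-206-3p was counted, at most 76.4 CPM. The part of other cell types in the level of miR-712 was not tested.

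The balance of the arms was near even in the pooled control TSC counts. It was too thinly counted in paused TSC and control ESC to place. The 5p arm held 48.2% and 60.5% of the miR-712 counts in the control TSC libraries (226 and 86 counts of both arms) and 53.3% in each paused TSC library (15 counts each). It held 75% and 50% in control ESC (8 and 6 counts) and 78.0% and 54.1% in paused ESC (41 and 61 counts). Pooled by group, the exact 95% binomial intervals were 45.9% to 57.3% in control TSC, 34.3% to 71.7% in paused TSC, 35.1% to 87.2% in control ESC and 53.6% to 73.0% in paused ESC. Within paused ESC the libraries differed, through the 3p arm with its 9 and 28 counts. The intervals of paused and control cells overlapped in both cell types, and a difference in arm balance was not tested.

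**Figure D4:**
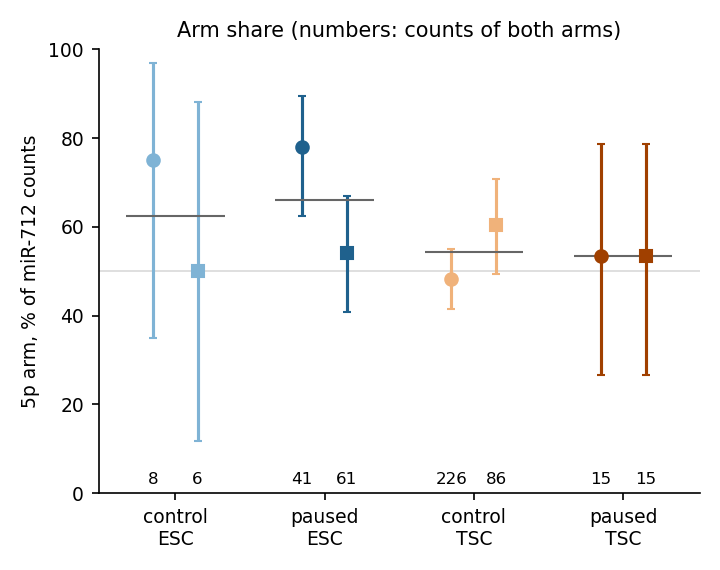
Share of the 5p arm among all miR-712 counts in each library, in percent, with exact 95% binomial intervals. The numbers above the axis are the counts of both arms. The control TSC libraries stand at 48.2% and 60.5%. The paused TSC libraries stand at 53.3% each, with wide intervals of 26.6% to 78.7% from 15 counts each. The intervals of control ESC, with 8 and 6 counts, cover most of the range.

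The fall in TSC, for which the arms were picked, kept its direction across the alternative settings. These draw on the same TSC libraries, so that direction follows in part from the choice of the arms. The ESC values stayed short of the threshold. In TSC the log2 fold change ranged from −3.21 to −1.82 for the 5p arm and from −3.13 to −2.12 for the 3p arm over 19 alternatives. In ESC it ranged from 0.82 to 1.58 for miR-712-5p, with adjusted p from 0.0658 to 0.381 in edgeR or DESeq2. For miR-712-3p it ranged from −0.027 to 1.81 over 18 alternatives, with adjusted p from 0.108 to 1.

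**Figure D5:**
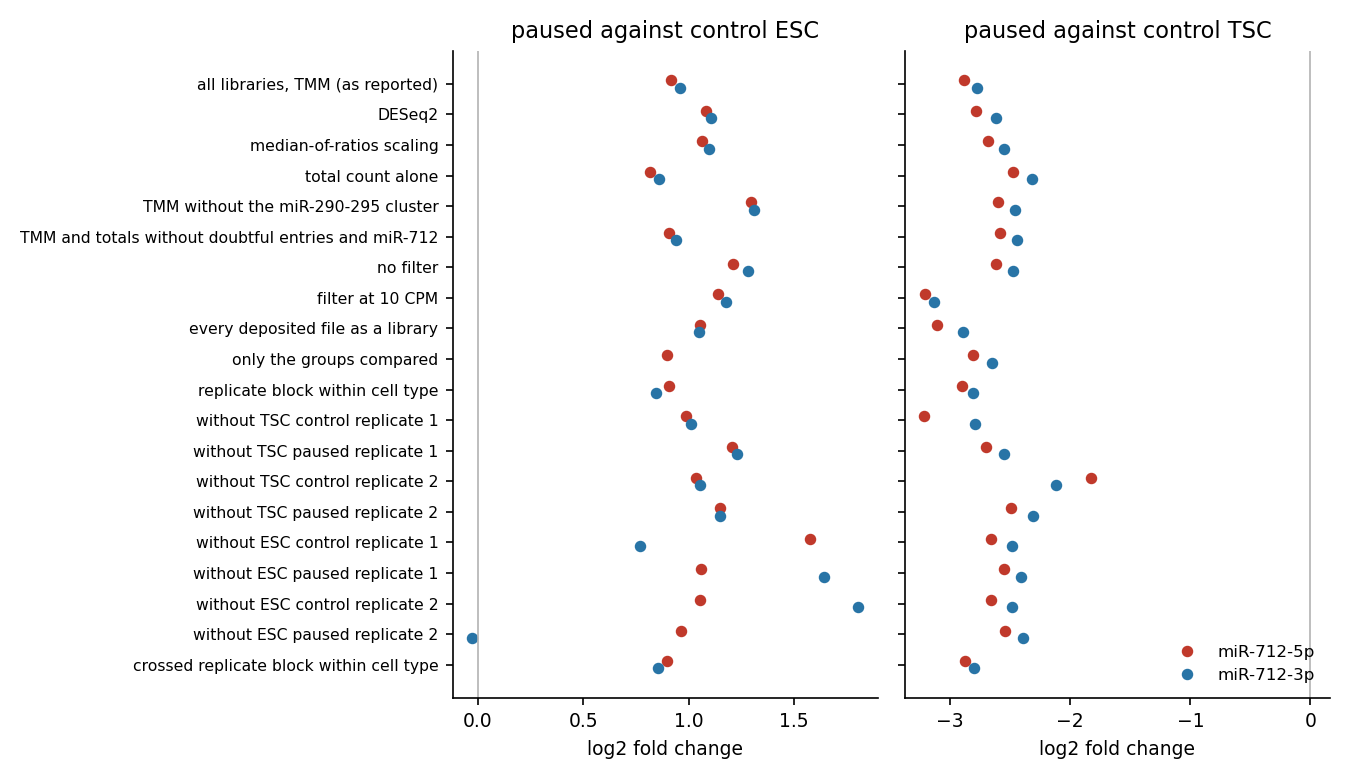
Log2 fold change of both arms on pausing of ESC (left) and of TSC (right) under each processing alternative, 1 row each, with the reported value at the top. All TSC values lie between −3.21 and −1.82, and the single value below 0 in ESC is that of miR-712-3p without paused ESC replicate 2 (−0.027).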

How the data were processed

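The deposited values are raw counts for each mature miRNA, which the authors derived on GRCm38 of the mouse genome, per the submitters' processing notes. Neither aligner nor counting tool nor the handling of reads with several matches is known here, which could matter for a transcript with many gene copies. edgeR 4.0.16 (R 4.3.3) was run with filterByExpr (minimum 10 counts), TMM scaling and a quasi-likelihood fit of all 4 groups on the 8 distinct libraries, leaving 4 residual degrees of freedom. Its p-values rest on a spread pooled over miRNAs. Calls were made at a Benjamini-Hochberg adjusted p under 0.05, two-sided. DESeq2 1.42.0 was an alternative, beside other scalings, filters, fits and left-out libraries. Scripts were tested on simulated data.

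miR-712 and the lists were chosen with earlier results of these data known. The text names both arms, the 5 tested miRNAs nearest each arm in log2 CPM (prior count 2), tested list members, the neighbours of the arms in the order of TSC fold changes, and detected markers. Lists by shared seed or locus were not made, since no sequence or coordinates of miR-712 were used here.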

Additional observations from a re-analysis of the deposited data

Results flagged for a closer look

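The pause effect on miR-712-5p pointed opposite ways in the cell types: both paused TSC libraries were below both control TSC libraries, and both paused ESC libraries were above both control ESC libraries. Of all tested miRNAs, 35.9% lay wholly lower in paused TSC and 34.5% wholly higher in paused ESC. Opposite signs were not particular to miR-712-5p. Among the miRNAs named here, miR-690 had 2.00 in ESC and −1.47 in TSC, and miR-203-3p had 0.90 and −2.40. For miR-6240 the values were 0.52 and −2.35, and for miR-126a-5p 1.02 and −0.89. The share of miRNAs lying apart in both comparisons was not counted. For miR-712-5p the pause effect in TSC minus that in ESC was −3.80 ± 0.72 (log2, SE). This difference was not tested, because miR-712 was picked for its change in TSC, and the change in ESC did not pass the threshold (edgeR adjusted p = 0.247).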

How the results depend on the processing

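Both arms kept their direction in each pause comparison under all alternatives but 1, and neither was called in ESC under any. Calls of list members were less stable: in TSC miR-714 was called in 2 of 18 alternatives, miR-690 in 6 of 19 and miR-5099 in 8 of 19, and in ESC miR-6240 was called in 1 (every deposited file, edgeR adjusted p = 0.0369). Signs of values near 0 were held by miR-5126 in ESC in 7 of 19, miR-484 in TSC in 5 of 19, and miR-205-5p in 6 of 19 (ESC) and 7 of 18 (TSC). The causes were not tested. Total count alone gave −2.60 for miR-712-5p, ESC against TSC in control cells. TMM without the miR-290-295 cluster gave −2.50 for the 5p and −2.99 for the 3p arm there, and 1.41 and 0.79 between paused cells, where the filter at 10 CPM gave 1.32 and 0.74. Mean levels moved by more than 1 SD for miR-712-5p in paused ESC (555 CPM with median-of-ratios scaling, 659 with TMM without the cluster) and for miR-712-3p in control TSC (1266 CPM with the latter). Called miRNAs in ESC were 57, but 37 by DESeq2 and 94 with every deposited file counted. In TSC they were 39, but 16 by DESeq2, 24 with median-of-ratios scaling, 19 with TMM without the cluster, 16 with no filter, and 19 with only the groups compared. In TSC 4 were called higher and 35 lower, against 14 and 12 with the total count alone, 9 and 17 with TMM and totals without doubtful entries, 6 and 13 with TMM without the cluster, and 6 and 18 with median-of-ratios scaling. In ESC 17 were called higher and 40 lower, against 41 and 33 with TMM without the cluster and 29 and 37 with median-of-ratios scaling.

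With 1 library left out, log2 fold changes in TSC ranged from −3.21 to −1.82 (5p) and −2.79 to −2.12 (3p), and in ESC from 0.97 to 1.58 and −0.027 (without paused ESC replicate 2) to 1.81. Where a group is left with 1 library, it is assumed to vary like the other groups. ESC against TSC ranged from −3.45 to −2.10 and −4.01 to −2.98 in control cells, and from 0.65 to 0.90 and −0.93 to 0.78 in paused cells. Calls ranged from 41 to 75 in ESC and 7 to 32 in TSC, where leaving out any library but control TSC replicate 2 lowered them by over 1.5 times. Levels ranged, for the 5p and 3p arms, from 1060 to 2816 and 1137 to 1842 CPM in control TSC, and from 482 to 531 and 136 to 451 CPM in paused ESC. miR-714 ranged from −1.56 to 0.23 in ESC, miR-2137 from −0.30 to 0.43, miR-5126 from −0.30 to 0.45 and miR-205-5p from −0.0080 to 0.89. In TSC miR-484 ranged from −0.31 to 0.81 and miR-205-5p from −0.51 to 0.65, and miR-21a-5p from 0.90 to 1.77.

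Other values near 0 changed sign, none of them called. In ESC miR-2137 was −0.057 with the total count, and −0.031 and −0.033 with the replicate block and its crossed form. miR-5126 was 0.052 by DESeq2, 0.053 with median-of-ratios scaling, 0.27 with TMM without the cluster, 0.23 with no filter, 0.14 with the filter at 10 CPM and 0.10 with every file. miR-205-5p was 0.16, 0.12, 0.36, 0.26, 0.20 and 0.14 in the same order. In TSC miR-484 was 0.079 by DESeq2, 0.13 with median-of-ratios scaling, 0.34 with the total count, 0.21 with TMM without the cluster, 0.23 without doubtful entries, 0.20 with no filter and 0.030 with only the groups compared. miR-205-5p was 0.065 with median-of-ratios scaling, 0.33 with the total count, 0.15 with TMM without the cluster, 0.18 without doubtful entries and 0.12 with no filter. miR-17-5p was −0.26 with the filter at 10 CPM.

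The replicate numbers did not pair the samples by any label. Same-numbered deviations correlated at −0.0715 in ESC and −0.183 in TSC, over 206 miRNAs. The replicate block within cell type gave 0.91 and 0.84 for the arms in ESC, neither called, and 12 calls in TSC. With the crossed pairing, added after seeing the data, there were 25 calls in TSC. miR-712-3p could not be tested in ESC with only the groups compared, since it failed the filter there. Depth limits the ESC values, with 9 and 5 counts of the arms in control ESC.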
